A study of Homo sapiens with 12 samples.

Results

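THP-1 cells that received an inflammatory stimulus together with a pair of drugs were compared with THP-1 cells left untreated, gene by gene, to see what remained changed, what lay near the untreated level and what was changed with the drugs but not with the stimulus alone. THP-1 is an established human line from an acute monocytic leukaemia, used as a model of monocytes. The comparison took 6 of the 12 libraries of the study and all 14065 genes that passed a filter on low counts. The CE group (3 libraries) had received LPS, a bacterial cell wall component, with ATP, and in addition cyclosporin A and eltrombopag. The NC group (3 libraries) was untreated. A further group (LPS, 3 libraries) had received LPS and ATP without the drugs, as a model of pyroptosis, and was used to sort the genes, and the remaining group (CEL), which also had luspatercept, entered the fit but is not described here. The sources used here give no dose or time. No group had the drugs without LPS and ATP, so in the difference between CE and NC the stimulus and the drugs cannot be told apart. The columns for CE in the deposited tables name a treatment without its agents, and they were assigned to CE as the set left over, so every value for CE rests on that match.

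LPS is sensed by TLR4, whose adaptors switch on NF-kB and the interferon regulatory factors and so the genes of inflammatory cytokines and of the antiviral response. ATP outside the cell opens the P2X7 channel, the NLRP3 inflammasome assembles, and caspase-1 cuts pro-IL-1 beta, pro-IL-18 and gasdermin D, whose pores release the cytokines and kill the cell by pyroptosis. Cyclosporin A, bound to a cyclophilin, inhibits the phosphatase calcineurin and keeps NFAT factors out of the nucleus, and eltrombopag activates the thrombopoietin receptor and also binds iron. The transcripts measured here say nothing of protein cutting or of release.

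Totals ran from 17737240 to 23183474 counts over the 12 libraries, and genes with any count from 21775 to 26123. The line's markers were in part as the label says: CD33 averaged 71.6 ± 3.51 CPM (counts scaled to the size of the library) in CE and 58.7 ± 1.84 CPM in NC, and CD68 174 ± 9.08 CPM in CE and 69.5 ± 2.34 CPM in NC (SD, n = 3 each), while SPI1, the factor PU.1, had 2.66, 24.06 and 4.10 CPM in CE and 3.36, 4.84 and 4.97 CPM in NC and did not pass (adjusted p = 0.142). FCGR1A, the high-affinity receptor for IgG, averaged 36.7 ± 3.73 CPM in CE and 99.3 ± 5.69 CPM in NC and fell by 1.43 (adjusted p = 1.1e-07), LYZ and CTSG fell by 4.42 and 3.97, and CD14, CSF1R and ITGAM rose by 2.87, 3.22 and 4.31. MPO, which marks myeloid precursors, had 1 count over CE and 34 over NC and was not tested. Markers of other cells were low in most cases: 2 of 21 erythroid and megakaryocyte genes passed the filter, with sums of 2.13 to 3.90 CPM in CE and 3.28 to 4.23 CPM in NC, and HBA1, HBD and PF4 were at 0 in both groups. The 20 lymphocyte genes summed to 433.8 to 511.0 CPM in CE and 155.9 to 187.5 CPM in NC, where CD8A, TRBC1 and TRBC2 were at 0 in both groups and IL7R made up most of the rise, and the 20 fibroblast, epithelial and endothelial genes summed to 490.2 to 556.1 CPM in CE and 227.2 to 250.2 CPM in NC, most of it PECAM1, which myeloid cells also express. Of the members that passed the filter, 1 erythroid gene rose and 1 fell, 3 of 7 lymphocyte genes rose and 2 fell (1 without any single library of CE 1, CE 2, NC 1, NC 2 or NC 3), and 4 of 5 genes of the last list rose. Over all tested genes 34.6% rose and 29.4% fell. The part of other cells in the results was not tested. In bulk samples, fewer cells of a kind and less RNA per cell cannot be told apart.

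CE 2, NC 3 and LPS 1 stood apart from their groups. In CE 2, 345 of 7461 genes whose log2 CPM averaged 3 or more were more than 2-fold above both other CE libraries, and 1 was more than 2-fold below, where no other library of CE, LPS or NC had over 11 such genes in either direction. The median GC content of those 345 genes was 54.8%, against 44.2% over all genes with a GC value. CE 1 and CE 3 also differed from NC by GC content. Among genes of lowest GC (median 37.5%), their median log2 differences to the NC mean were 0.301 and 0.317. Among genes of highest GC (median 55.1%), they were -0.104 and -0.0951. CE 2 had 0.205 and 0.269, and the NC libraries lay between -0.0286 and 0.0143 in both sets. Differences between CE and NC thus varied with GC content. In NC 3, genes without a symbol took 7.31% of counts and the replication-dependent histones 112.4 CPM, against 0.724% and 0.768% and 15.1 and 13.3 CPM in NC 1 and NC 2. LPS 1 did the same, with 5.38% of counts without a symbol and histones at 81.7 CPM, against 0.641% and 0.643% and 13.04 CPM in each of LPS 2 and LPS 3. LPS enters the sorting of genes into classes, so LPS 1 bears on it: without LPS 1 alone, 1166 genes remained higher and 595 lower than NC, against 1182 and 631 with it, and with NC 3 left out too, 1052 and 538. Where leaving out CE 2 or NC 3 changed the call of a gene named below, the value without that library stands beside it. For H4C8 without CE 2 only the loss of the call is stated. On the first principal component (55.6% of the variance), CE lay at 46.2 to 51.9, LPS at -3.33 to -0.349 and NC at -110 to -103.

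In CE, 4869 of 14065 genes (34.6%) were higher and 4139 (29.4%) lower than in NC at an adjusted p under 0.05, and 2430 (17.3%) and 1872 (13.3%) of all genes were also at least 2-fold apart. Rose, fell and changed are used below for genes that passed the adjusted p of edgeR's quasi-likelihood F-test, values after ± in log2 units are standard errors, and CPM are given for libraries 1, 2 and 3 in that order. The libraries of CE and NC did not overlap in 9434 genes (67.1%). The median over all genes was 0.09 on the log2 scale. Beside these, LPS was higher than NC in 22.4% of the genes and lower in 23.5% (10.2% and 6.26% at least 2-fold), and CE was higher than LPS in 28.8% and lower in 20.7%. Of the called genes 54.1% were higher, and this share moved with the scaling: it was 38.7% with upper quartile factors (a shift of the median by -0.28), 45.3% with library size alone (-0.16), 66.8% and 68.0% in limma on TPM (0.17 and 0.18) and 44.4% in limma on FPKM (-0.16). The direction of changes smaller than these shifts depends on the scaling.

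The genes were sorted by setting CE and LPS each against the same NC libraries, where changed means at least 2-fold with an adjusted p under 0.05. Genes changed in LPS and in CE in the same direction remained changed: 1182 higher (8.40% of all tested) and 631 lower (4.49%). Genes changed in LPS, moved back by an adjusted p under 0.05 in CE against LPS, and with a 95% interval of CE against NC within 2-fold, lay near NC: 60 that were higher in LPS (0.427%) and 93 that were lower (0.661%). Genes changed in CE, not called in LPS and with an interval of LPS against NC within 2-fold, were new in CE: 241 higher (1.71%) and 295 lower (2.10%). A further 29 (0.206%) were changed in opposite directions, 8 of them higher (0.0569%) and 21 lower (0.149%) in CE, and 11534 (82.0%) met none of these rules. Both comparisons share the NC libraries, and CE against LPS shares libraries with each, so the classes are a description and their sizes carry no test of their own.

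**Figure D1:**
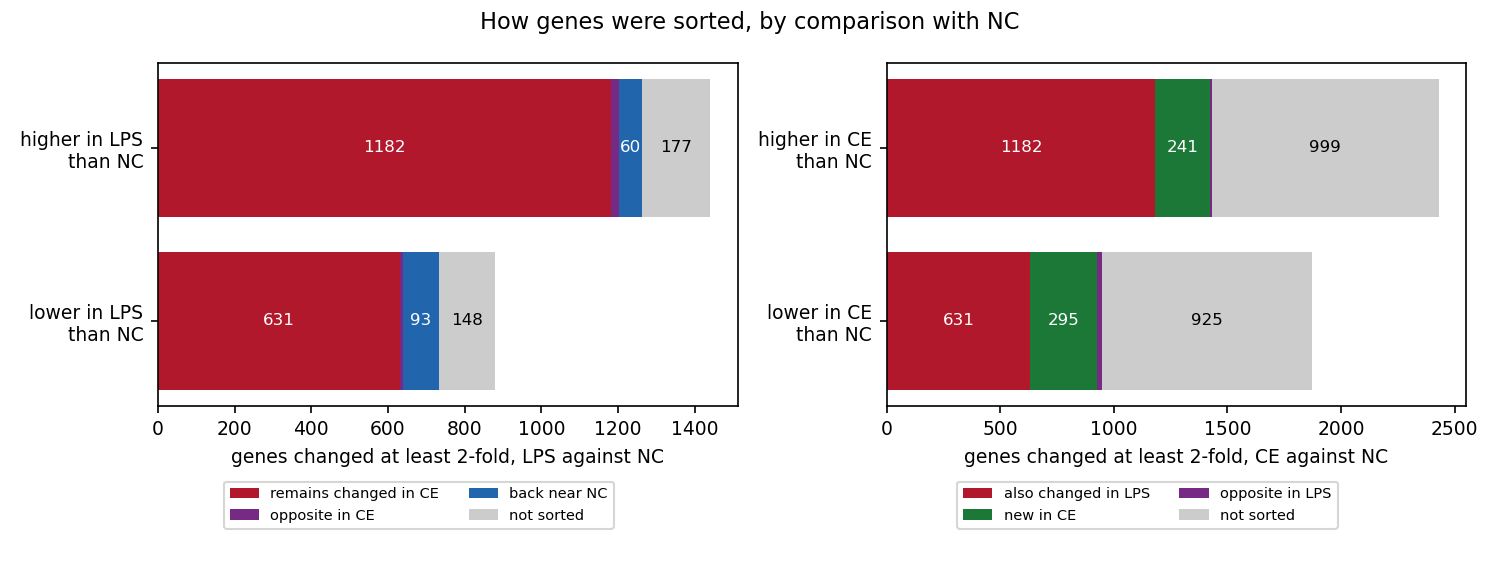
Fate in CE of the genes changed at least 2-fold in LPS against NC (left) and makeup of the genes changed at least 2-fold in CE against NC (right), as stacked numbers of genes. Of the 1440 genes higher in LPS, 1182 remained higher in CE and 60 lay near NC, and of the 880 lower in LPS, 631 remained lower and 93 lay near NC.

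Most genes that LPS and ATP had moved were still moved with the drugs present. Of 1440 genes at least 2-fold higher in LPS than in NC, 82.1% remained higher in CE, 4.17% lay near NC, 1.46% were lower than NC and 12.3% were not sorted. Of 880 genes lower in LPS, 71.7% remained lower, 10.6% lay near NC, 0.909% were higher than NC and 16.8% were not sorted. The unsorted genes include 123 from the higher set (8.54% of 1440) and 93 from the lower set (10.6% of 880) that did not pass in CE against NC. They did not meet the rule for lying near NC, so whether they were restored is open. Among the genes that remained higher, 430 (3.06% of all tested) lay further from NC in CE than in LPS, 222 (1.58%) lay closer, and 530 (3.77%) did not pass in CE against LPS. Among those that remained lower, the numbers were 225 (1.60%), 40 (0.284%) and 366 (2.60%). Their median log2 change was 2.85 in CE and 2.59 in LPS for the higher genes, and -2.16 in CE and -1.63 in LPS for the lower ones. Protein-coding genes made up 84.1% of the genes that remained higher, 58.3% of those that remained lower and 81.1% of all tested genes. The genes that remained lower were mostly of low level. Their median of the mean log2 CPM was -0.0563, against 2.37 for those that remained higher and 3.34 over all tested genes. In the opposite class it was -0.505 for the lower and 0.808 for the higher genes.

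Seen from the other side, 48.6% of the 2430 genes at least 2-fold higher in CE than in NC were also changed in LPS, 9.92% were new, and 41.1% were not sorted, most often because LPS had moved them the same way by less than 2-fold (583 genes). Of the 1872 lower genes, 33.7% remained changed, 15.8% were new and 49.4% were not sorted. The number of new lower genes depended on CE 2: without that library it was 471, against 295 with it, and with CE 2 and NC 3 both left out it was 448. The number near NC that had been higher in LPS was 96 without CE 2, against 60 with it. The opposite class is small: without NC 1 it held 5 higher and 12 lower genes, without NC 2 it held 13 lower genes, and without CE 3 it held 5 higher genes.

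**Figure D2:**
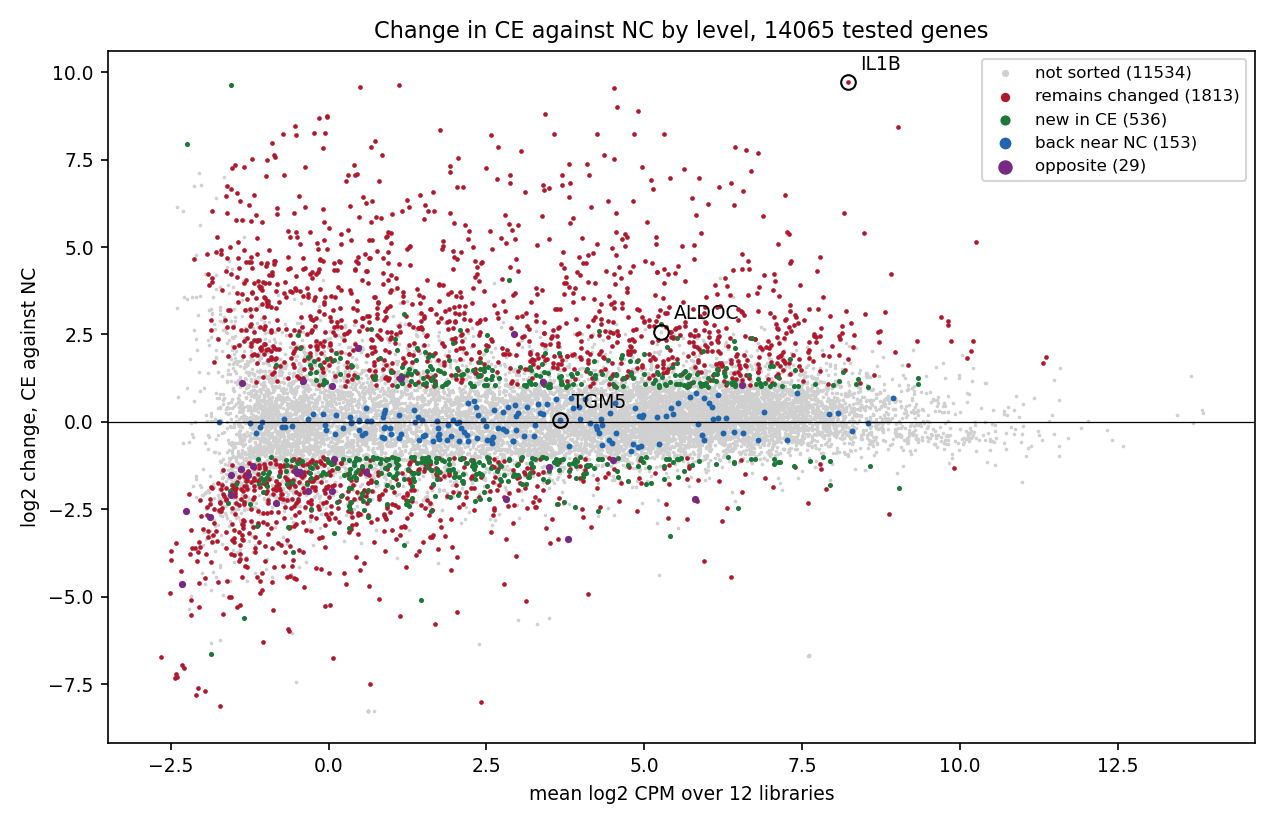
Log2 change of CE against NC (vertical axis) against the mean log2 CPM over the 12 libraries (horizontal axis) for the 14065 tested genes, coloured by class. IL1B lies at the top among the genes that remained changed, TGM5 at about 0 among those near NC and ALDOC at 2.58 among genes that were not sorted.

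IL1B (ENSG00000125538, chr2:112829751-112836903, minus strand, hg38) encodes pro-IL-1 beta. It stood at 1914, 1566 and 1727 CPM in CE, 2043, 2054 and 1866 CPM in LPS, and 1.83, 2.33 and 2.05 CPM in NC. The CE libraries lay far above NC and below or among those of LPS. IL1B was 9.71 ± 0.13 log2 units (838-fold) higher in CE than in NC (adjusted p = 4.1e-13), the largest change among all tested genes, while CE and LPS differed by -0.20 (adjusted p = 0.0747). IL1A, its relative that is active without cutting, was 8.79 ± 0.15 higher in CE than in NC, at 46.0, 42.2 and 45.9 CPM in CE and 0.0831, 0.0913 and 0.114 CPM in NC. At such low levels in NC the standard error can be too small. Over all settings the change of IL1A ran from 4.47 to 8.95.

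TGM5 (ENSG00000104055, chr15:43232595-43266857, minus strand), a transglutaminase that cross-links proteins and is known from the outer skin, stood at 26.9, 24.4 and 26.5 CPM in CE, 2.95, 2.79 and 3.15 CPM in LPS, and 25.6, 25.7 and 24.1 CPM in NC. The CE and NC libraries overlapped, and the LPS libraries lay below all of them. Against NC the log2 difference of CE was 0.04 ± 0.09 (adjusted p = 0.674), and against LPS CE was 3.13 higher (8.73-fold). The sign of the difference to NC turned with several settings, for instance to -0.24 with upper quartile factors.

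ALDOC (ENSG00000109107, chr17:28573115-28577264, minus strand), the brain-type aldolase of glycolysis, stood at 101, 85.5 and 90.3 CPM in CE, 13.2, 12.4 and 11.9 CPM in LPS, and 16.03, 14.9 and 15.1 CPM in NC. Each CE library lay far above every library of the other groups. ALDOC was 2.58 ± 0.08 (6.00-fold) higher in CE than in NC (adjusted p = 1.4e-10). LPS was 0.30 lower than NC (adjusted p = 0.00828), so ALDOC missed the class of new genes by that call and is among those not sorted. Its promoter is shown because ALDOC rose in CE and not in LPS and because the window carries 3 matches to ACGTG, the core of the hypoxia response element. Promoters here are the 250 bases before the gene's start in RefSeq (GRCh38.p14), written 5′ to 3′ on the gene's strand, and motifs were searched on both strands. The matches begin 240, 239 and 28 bases before the start, the first pair overlap in the palindrome CACGTG, and the core is also part of the longer E-box of lysosomal genes (GTCAC followed at once by GTGAC). The span of ALDOC given above comes from another annotation, whose start lies further upstream, so the window lies inside that span. The distances hold for the RefSeq start only. The window of ALDOC is chr17:28576896-28577145 on the minus strand, with the matches in capitals.
ALDOC: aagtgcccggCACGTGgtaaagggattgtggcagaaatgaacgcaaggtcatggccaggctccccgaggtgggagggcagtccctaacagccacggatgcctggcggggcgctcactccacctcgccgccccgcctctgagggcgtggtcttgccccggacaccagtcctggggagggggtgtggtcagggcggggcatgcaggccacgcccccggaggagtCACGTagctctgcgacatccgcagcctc
ACGTG was in 18.7% of 27305 promoters of the same length. A match describes the letters only, not a bound site or a cause.

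**Figure D3:**
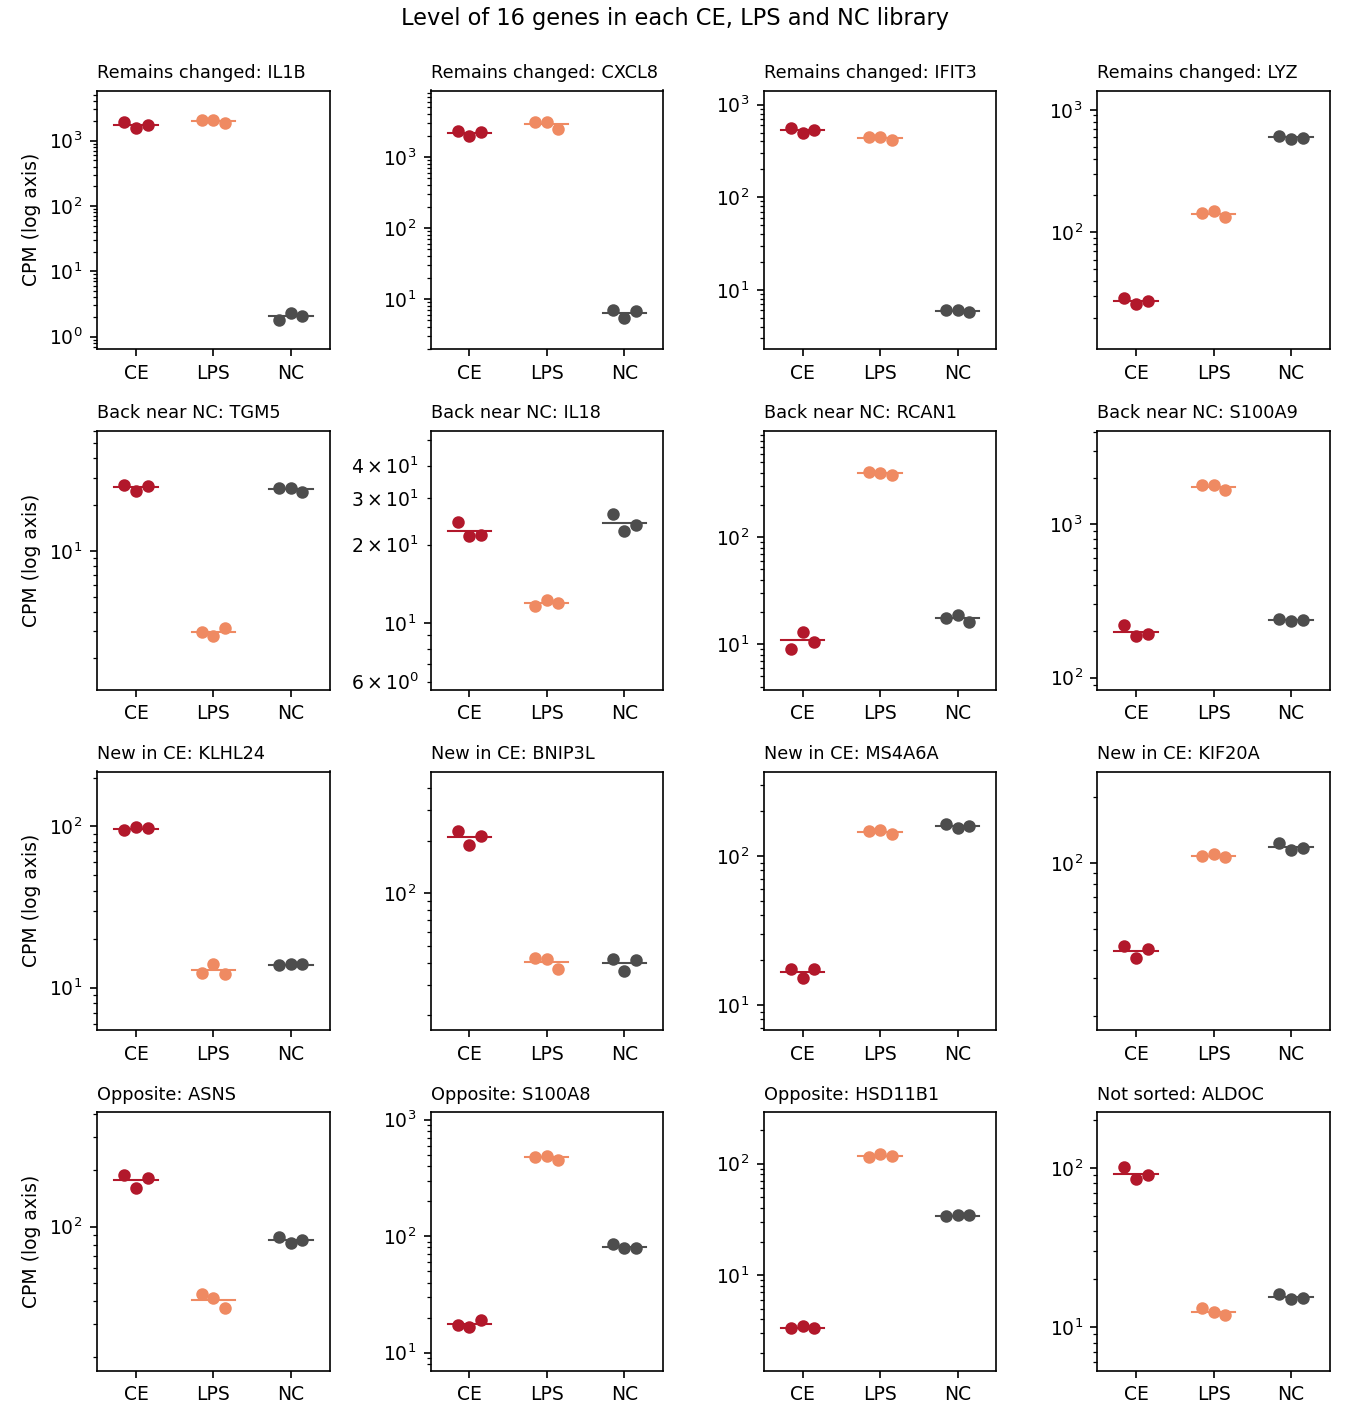
Level (CPM, log axis) of 16 genes in the single libraries (points) of CE, LPS and NC, with a line at each mean. From top to bottom the rows show genes that remained changed, genes near NC in CE, genes new in CE, and genes that were opposite or not sorted: IL1B is far above NC in CE and in LPS, TGM5 in CE overlaps NC, KLHL24 is high in CE alone, and ALDOC is high in CE alone.

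The IL-1 and inflammasome genes stayed above NC in CE. Of 29 tested members 25 rose, 0 fell and 4 did not pass, with a median of 1.79 log2 units, where the median of all genes was 0.09. NLRP3, the sensor of the inflammasome, stood at 283, 257 and 271 CPM in CE, 107, 104 and 107 CPM in LPS, and 83.3, 76.2 and 78.3 CPM in NC. All 3 CE libraries lay above the others, and NLRP3 was 1.77 ± 0.05 higher in CE than in NC (adjusted p = 5.6e-11) and 1.35 higher in CE than in LPS. CASP1, the caspase that cuts IL-1 beta, was at 223, 190 and 213 CPM in CE and 82.7, 79.3 and 82.2 CPM in NC (1.36 ± 0.06), with a difference of -0.09 to LPS (adjusted p = 0.212). IL18R1, a chain of the IL-18 receptor, was 5.88 ± 0.14 higher in CE and 3.44 higher in LPS.

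The 4 members that did not pass were IL18, PYCARD, GSDMD and IL1R2. IL18, the other cytokine that caspase-1 cuts, was at 24.4, 21.6 and 21.7 CPM in CE, 11.6, 12.3 and 12.0 CPM in LPS, and 26.0, 22.5 and 23.7 CPM in NC. The CE libraries overlapped those of NC and lay above those of LPS. The log2 difference of CE to NC was -0.09 ± 0.10 (adjusted p = 0.454), with the sign turned in limma on TPM (0.09), and LPS was 1.01 lower than NC, so IL18 is among the genes near NC. PYCARD, the adaptor ASC, was at 12.2, 12.2 and 8.96 CPM in CE and 14.4, 15.6 and 9.82 CPM in NC, a log2 difference of -0.26 ± 0.18 (adjusted p = 0.237). It passed as lower without NC 3 (-0.47, adjusted p = 0.0283), without CE 2 and NC 3 (-0.50, adjusted p = 0.0212), without NC 3 and LPS 1 (-0.51, adjusted p = 0.0259) and with upper quartile factors (-0.54, adjusted p = 0.0193), while with a GC offset it was 0.02 (adjusted p = 0.952). GSDMD, the pore protein, had 0.148, 1.30 and 0.145 CPM in CE and 0.498, 0.365 and 0.285 CPM in NC. CE 2 alone lay above NC, and the log2 difference of 0.45 ± 0.84 became -1.35 without it, so at these counts no difference was detectable.

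Cytokine genes had the largest median of the lists. Of 30 tested members 26 rose, 0 fell and 4 did not pass, with a median of 5.55 in CE, and 28 rose in LPS, with a median of 6.02. Set against LPS directly, 5 members were higher and 16 lower in CE, with a median of -0.68. CXCL8, which attracts neutrophils, was at 2342, 1967 and 2240 CPM in CE and 6.98, 5.39 and 6.68 CPM in NC, a difference of 8.43 ± 0.16. TNF, the early cytokine of macrophages, was at 108, 150 and 105 CPM in CE, 68.5, 67.9 and 71.0 CPM in LPS, and 2.74, 1.87 and 2.23 CPM in NC. The 3 CE libraries lay above LPS, and TNF was 5.72 ± 0.17 higher in CE than in NC and 0.81 higher in CE than in LPS (adjusted p = 0.000415). CXCL10 and CXCL11, attractants of T cells that interferon induces, were 6.91 ± 0.13 and 7.75 ± 0.13 higher in CE than in NC. IL6, the cytokine of the acute phase, had 52 counts over the 3 CE libraries and 1 over those of NC, 53.4-fold with an exact counting interval from 9.17 to 2150, and lay 2.01 lower in CE than in LPS (adjusted p = 0.000143). CCL3, 9.01 ± 0.16 higher in CE, has near-identical copies among which reads may have been split. Without CE 2, 1 member of the list fell.

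NF-kB subunits and their feedback genes rose, and 11 of them were higher and 4 lower in CE than in LPS. Over all tested genes 28.8% were higher and 20.7% lower in CE than in LPS. Of 27 tested members 25 rose, 1 fell (IRAK3, -0.42) and 1 did not pass (RELA), with a median of 3.60 in CE and 2.61 in LPS. NFKBIA, the inhibitor that NF-kB itself induces, was at 306, 297 and 287 CPM in CE, 177, 178 and 169 CPM in LPS, and 29.3, 30.5 and 28.1 CPM in NC. The groups did not overlap, and NFKBIA was 3.34 ± 0.04 higher in CE than in NC (adjusted p = 4.1e-13) and 0.77 higher in CE than in LPS. TNFAIP3, the deubiquitinase A20 that damps the pathway, was 5.43 ± 0.10 higher in CE and 3.98 in LPS, and BIRC3, an inhibitor of apoptosis, 6.24 ± 0.11 and 4.91. ZC3H12C, an RNase of the regnase family, was at 292, 369 and 352 CPM in CE, 43.3, 43.2 and 37.3 CPM in LPS, and 16.3, 16.1 and 16.3 CPM in NC, so its change was 4.38 ± 0.10 in CE and 1.34 in LPS. ICAM1, an adhesion molecule, was at 103, 338 and 124 CPM in CE and 0.332, 0.365 and 0.514 CPM in NC. CE 2 lay more than 2-fold above both other CE libraries, and the change of 8.87 ± 0.64 was 8.17 without it. With CE 2 and NC 3 left out, 22 members rose and 1 fell.

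The kappaB element, searched as GGGA and TTCC with any 2 bases between them, was in 5 of 25 members of this list with a promoter (20%), in 8 of 25 cytokine genes (32%) and in 1.42% of all promoters. The letters were not in the window of IL1B. NFKBIA is shown for its match, which begins 81 bases before the start, in chr14:35404750-35404999 on the minus strand.
NFKBIA: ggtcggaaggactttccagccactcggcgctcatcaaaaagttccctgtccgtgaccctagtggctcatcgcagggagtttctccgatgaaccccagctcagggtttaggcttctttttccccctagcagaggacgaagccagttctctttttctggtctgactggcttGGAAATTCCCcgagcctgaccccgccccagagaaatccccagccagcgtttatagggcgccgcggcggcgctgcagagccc

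The interferon response remained raised almost whole. Of 50 tested members 48 rose, 0 fell and 2 did not pass (IFITM2 and LGALS3BP), with a median of 4.57 in CE. In LPS 48 rose, with a median of 4.78. Without CE 1, 1 member fell in CE. Set against LPS directly, 12 members were higher and 19 lower in CE, with a median of -0.20. Of all tested genes 28.8% were higher and 20.7% lower in that comparison. IFIT3, an antiviral protein that binds foreign RNA complexes, was at 565, 497 and 535 CPM in CE, 443, 451 and 416 CPM in LPS, and 6.02, 6.12 and 5.77 CPM in NC. IFIH1, the RNA sensor MDA5, was at 409, 412 and 422 CPM in CE, 283, 282 and 262 CPM in LPS, and 17.6, 17.2 and 16.8 CPM in NC. Both were higher in every CE library than in any LPS library, and their changes against NC were 6.47 ± 0.07 and 4.59 ± 0.05 (adjusted p = 2.2e-13 and 1.4e-13). MX2, a GTPase that blocks viruses, was 5.37 ± 0.05 higher in CE and 5.58 in LPS, and PARP9, a partner in interferon signalling, 3.90 ± 0.05 and 4.11. Both lay 0.21 lower in CE than in LPS (adjusted p = 0.00132 and 0.00137).

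The interferon-stimulated response element, searched as a GAAA pair with any 2 bases between, was in 21 of 37 members of this list with a promoter (56.8%), in 7 of 16 genes of the class I antigen list (43.8%) and in 3.07% of all promoters. IFIT3 and IFIH1 are shown as members described above with several matches. Those of IFIT3 begin 156 and 122 bases before the start, in chr10:89327747-89327996 on the plus strand. Those of IFIH1 begin 159, 153 and 21 bases before it, the first pair overlapping, in chr2:162318685-162318934 on the minus strand, which also holds 1 kappaB match that is not in capitals.
IFIT3: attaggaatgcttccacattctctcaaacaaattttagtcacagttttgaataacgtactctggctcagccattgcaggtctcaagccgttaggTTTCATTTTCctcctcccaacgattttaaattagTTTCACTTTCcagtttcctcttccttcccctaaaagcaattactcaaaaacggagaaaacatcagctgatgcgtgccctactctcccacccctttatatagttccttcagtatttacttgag
IFIH1: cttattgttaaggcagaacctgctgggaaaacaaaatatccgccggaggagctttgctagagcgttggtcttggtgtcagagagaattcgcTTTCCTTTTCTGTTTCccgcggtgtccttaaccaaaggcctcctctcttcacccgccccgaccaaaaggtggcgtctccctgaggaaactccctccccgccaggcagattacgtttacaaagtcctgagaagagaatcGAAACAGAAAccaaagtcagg

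TLR4 signalling genes rose in part. Of 24 tested members 19 rose, 0 fell and 5 did not pass, with a median of 1.08 in CE and 1.06 in LPS. TLR1, which pairs with TLR2, was 3.65 ± 0.13 higher in CE, and TLR6, its close relative, 2.95 ± 0.11. PELI1, a ubiquitin ligase of the pathway, was 2.52 ± 0.07 higher, and TRAF3, an adaptor towards interferon, 1.83 ± 0.07, where LPS was 0.97 higher. Immediate early genes, which respond within minutes to signals, rose in 21 of 24 cases and fell in 0, with medians of 2.85 in CE and 2.96 in LPS; with CE 2 and NC 3 left out, 16 rose. KLF6, a zinc finger factor, was at 271, 265 and 272 CPM in CE, 89.7, 90.9 and 87.2 CPM in LPS, and 30.9, 31.5 and 30.1 CPM in NC, so that the groups did not overlap and the change was 3.13 ± 0.04 in CE and 1.53 in LPS. ATF3, a stress factor that represses cytokine genes, was 4.39 ± 0.12 and 2.81 higher. EGR2, a zinc finger factor, had 458 counts over CE and 2 over NC, 235-fold with an exact counting interval from 64.7 to 1950. KLF10, a factor that TGF-beta induces, was new: 174, 151 and 164 CPM in CE, 37.5, 35.1 and 31.7 CPM in LPS, and 34.0, 31.8 and 33.2 CPM in NC, with the CE libraries above all others and a change of 2.30 ± 0.08.

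**Figure D4:**
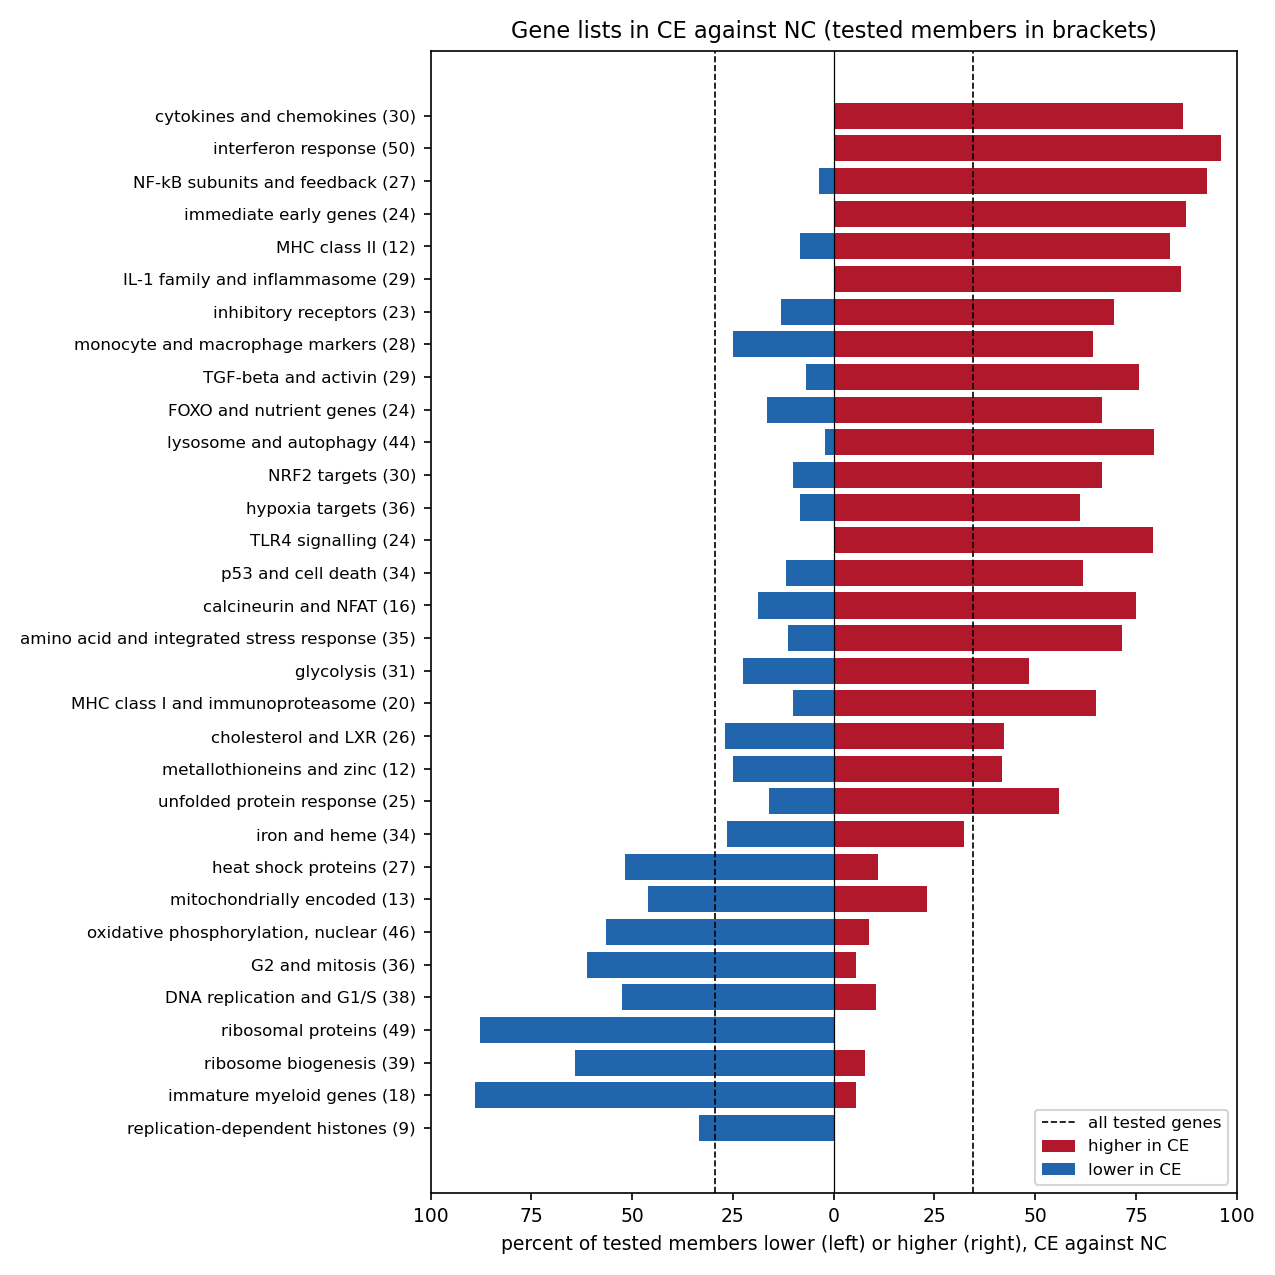
Percent of the tested members of each gene list that were lower (left) and higher (right) in CE than in NC at an adjusted p under 0.05, with dashed lines at the share of all tested genes, 29.4% lower and 34.6% higher. The interferon and NF-kB lists reach furthest to the right, and the genes of immature myeloid cells and ribosomal proteins furthest to the left.

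Genes of the calcineurin and NFAT pathway, the target of cyclosporin A, moved in both directions. RCAN1, a feedback inhibitor of calcineurin whose transcription NFAT drives, was at 9.11, 13.04 and 10.5 CPM in CE, 405.9, 402 and 379.5 CPM in LPS, and 17.7, 18.9 and 16.04 CPM in NC. The LPS libraries lay far above the rest, and each CE library lay below each NC library. RCAN1 was 4.50 higher in LPS than in NC, the largest such change among the named genes near NC, and 0.69 ± 0.11 lower in CE than in NC (adjusted p = 0.000178), a call lost in limma on TPM. Of 16 tested members 12 rose, 3 fell (RCAN1, PPIA and PPP3CB) and 1 did not pass, with a median of 0.85 in CE and 0.18 in LPS. PPIF, the mitochondrial cyclophilin, was 2.58 ± 0.05 higher in CE and 2.19 in LPS, and NFAT5, the factor of the family that calcineurin does not control, 2.56 ± 0.08 and 1.15. NFATC3 rose by 0.61 ± 0.04 in CE, where LPS had a log2 difference of -0.07, and PPP3R1, the regulatory subunit of calcineurin, by 0.83 ± 0.08.

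The calprotectin genes moved in the same directions but by different amounts. S100A9 was at 221, 187 and 192 CPM in CE, 1788, 1803 and 1672 CPM in LPS, and 241, 233 and 237 CPM in NC. S100A8, whose protein pairs with that of S100A9, was at 17.4, 16.6 and 19.2 CPM in CE, 479, 492 and 455 CPM in LPS, and 86.1, 79.3 and 79.4 CPM in NC. In both genes LPS lay above NC and CE below it, without overlap. S100A8 fell by 2.20 ± 0.06 in CE against NC (adjusted p = 5.1e-11) and was 2.54 higher in LPS, so it is in the opposite class. S100A9 fell by 0.25 ± 0.06 (adjusted p = 0.0055) and lies near NC, and it lost the call when low counts were not filtered, in limma on TPM, with a GC offset and with CE 2 and NC 3 left out. VCAN, a large matrix proteoglycan of monocytes, was 2.23 higher in LPS and had a log2 difference of 0.26 ± 0.11 in CE (adjusted p = 0.0533), which passed without CE 2 (0.35, adjusted p = 0.0102) and without NC 1 (0.38, adjusted p = 0.00659), and whose sign turned under upper quartile factors (-0.03, adjusted p = 0.856).

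**Figure D5:**
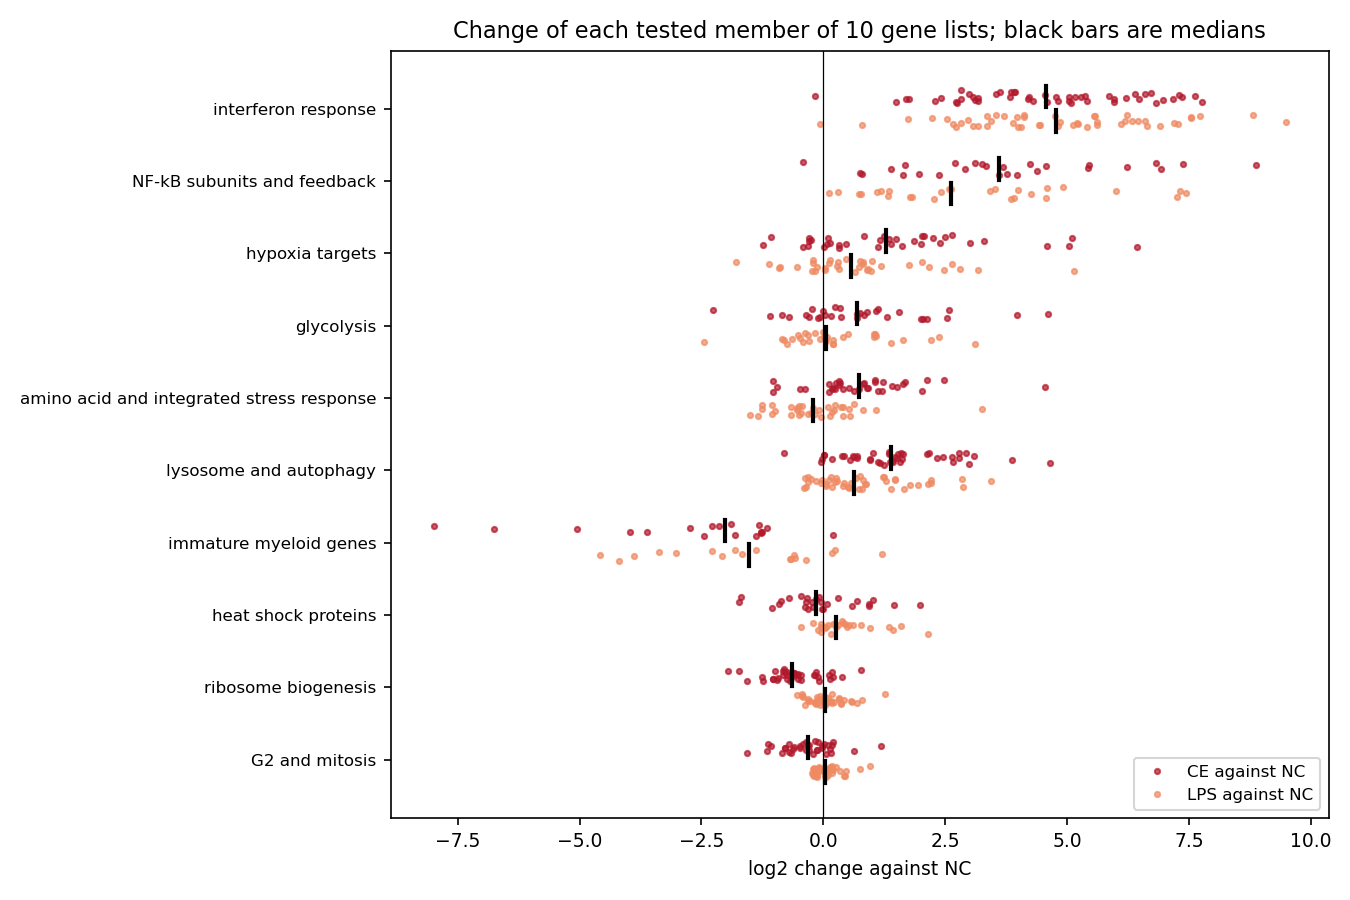
Log2 change against NC of the tested members (points) of 10 gene lists, with CE drawn above LPS in each list. In the interferon list both sets of points lie mostly above 2, and in the amino acid list the median of CE, 0.72, lies to the right of that of LPS, -0.22.

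Markers of monocytes and macrophages were mixed. Of 28 tested members 18 rose, 7 fell and 3 did not pass, with a median of 1.65 in CE and 2.61 in LPS. CE was above LPS in 4 and below it in 15. FCGR2B, the inhibitory receptor for IgG, was at 46.8, 45.6 and 47.5 CPM in CE, 3.73, 5.25 and 3.69 CPM in LPS, and 0.415, 0.639 and 0.400 CPM in NC. It was 6.56 ± 0.18 higher in CE than in NC and 3.46 higher than in LPS. CCR2, the receptor by which monocytes leave the marrow, was at 12.0, 10.6 and 11.6 CPM in CE, 130, 131 and 120 CPM in LPS, and 244, 228 and 238 CPM in NC, a fall of 4.38 ± 0.09 in CE and of 0.90 in LPS. LYZ, lysozyme, was at 29.4, 26.1 and 27.7 CPM in CE, 143, 149 and 134 CPM in LPS, and 614, 582 and 590 CPM in NC. All 3 groups were apart, and LYZ fell by 4.42 ± 0.07 in CE against NC (adjusted p = 7.5e-13). CSF1R, the receptor of the macrophage growth factor, was highest in CE 2, at 29.9, 132 and 40.6 CPM in CE, against 6.40, 7.63 and 7.76 CPM in NC. ITGAM, an integrin of myeloid cells, had the same order, at 12.5, 60.0 and 17.3 CPM in CE, against 1.74, 1.78 and 0.913 CPM in NC.

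Genes of immature myeloid cells fell. Of 18 tested members 1 rose (0 without NC 1 or NC 3), 16 fell and 1 did not pass, with a median of -2.02 in CE and -1.53 in LPS. MS4A3, a membrane protein of granulocyte and monocyte precursors, was at 0.886, 0.529 and 1.01 CPM in CE, 9.28, 8.52 and 8.26 CPM in LPS, and 217, 201 and 206 CPM in NC, and fell by 8.00 ± 0.15 in CE. CTSG, the granule protease cathepsin G, fell by 3.97 ± 0.09, to 37.1, 28.4 and 32.5 CPM in CE, against 540, 494 and 496 CPM in NC. MYB, a factor of blood progenitors, fell by 1.90 ± 0.05 in CE and 1.38 in LPS. KIT, the receptor of stem cell factor, fell by 2.73 ± 0.09 in CE and by 3.89 in LPS, and CE lay 1.16 above LPS (adjusted p = 1.0e-06). CD38, an ectoenzyme of the same list, was opposite: 1.28 ± 0.13 lower in CE than in NC and 1.21 higher in LPS than in NC, a call lost for CE in limma on log2(TPM + 1).

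Inhibitory receptors and their ligands rose in 16 of 23 cases and fell in 3, with a median of 1.66 in CE and 1.42 in LPS. CD274, which encodes PD-L1, was at 57.4, 52.4 and 60.3 CPM in CE, 17.7, 18.2 and 12.7 CPM in LPS, and 0.498, 0.548 and 0.970 CPM in NC. The CE libraries lay above all others, with a change of 6.43 ± 0.22 against NC and 1.81 against LPS. PDCD1LG2, which encodes PD-L2, was 4.89 ± 0.22 higher in CE, with a range from 1.40 to 5.03 over all settings. CD300A, a receptor that damps myeloid cells, was 4.47 ± 0.08 higher in CE, where LPS was 1.22 higher. Genes of MHC class II presentation rose in 10 of 12 cases and fell in 1 (RFX5), with a median of 1.93 in CE and 0.62 in LPS. HLA-DRA was at 55.3, 41.3 and 48.5 CPM in CE, 16.4, 15.8 and 14.4 CPM in LPS, and 5.36, 5.43 and 5.37 CPM in NC, a change of 3.17 ± 0.10, and CD74, the invariant chain, rose by 1.86 ± 0.05 in CE and 0.90 in LPS. HLA-DPA1 was new in CE (2.00), and reads of HLA genes may be shared among their relatives. In the class I list 13 of 20 rose and 2 fell, and B2M, the shared light chain, rose by 1.68 ± 0.09.

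Genes new in CE were spread over many functions. Their median change was 1.31 for the higher and -1.33 for the lower genes in CE, against 0.11 and -0.13 in LPS. KLHL24, an adaptor of a ubiquitin ligase, was at 94.4, 98.5 and 97.9 CPM in CE, 12.3, 14.1 and 12.1 CPM in LPS, and 13.8, 14.02 and 13.9 CPM in NC. IL16, a cytokine precursor, was at 56.7, 61.4 and 51.5 CPM in CE, 9.92, 9.98 and 9.59 CPM in LPS, and 10.1, 8.13 and 9.48 CPM in NC. In both the CE libraries lay far above the overlapping libraries of LPS and NC, with changes of 2.80 ± 0.06 and 2.61 ± 0.09 (adjusted p = 1.4e-11 and 5.7e-10). ARHGAP25, a Rac regulator of blood cells, rose by 2.40 ± 0.07 and BNIP3L, a receptor for the removal of mitochondria, by 2.39 ± 0.09. DNAJB9, a chaperone cofactor of the endoplasmic reticulum, rose by 2.13 ± 0.09.

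The lower genes new in CE included MS4A6A, a membrane protein of macrophages and a relative of MS4A3, at 17.4, 15.3 and 17.4 CPM in CE, 147, 149 and 141 CPM in LPS, and 164, 154 and 160 CPM in NC. RBM12, an RNA-binding protein, was at 35.2, 36.1 and 38.1 CPM in CE, 195, 201 and 199 CPM in LPS, and 209, 192 and 202 CPM in NC. CE lay far below the other groups in both, with falls of 3.25 ± 0.07 and 2.46 ± 0.05. CRISPLD1, a secreted protein, fell by 2.53 ± 0.09, PRMT6, an arginine methyltransferase of histones, by 2.42 ± 0.23, TMT1B by 2.34 ± 0.11 and TMEM168 by 2.28 ± 0.07. PRMT6 was at 5.41, 11.7 and 6.26 CPM in CE, where CE 2 lay highest, and at 40.6, 42.1 and 43.3 CPM in NC.

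FOXO and nutrient genes include targets of FOXO factors and other genes of growth arrest. Of 24 tested members 16 rose, 4 fell and 4 did not pass in CE, with a median of 1.45, where in LPS 7 rose and 6 fell, with a median of -0.07, and CE was above LPS in 16 and below it in 1. The median in CE was 0.96 with CE 2 and NC 3 left out. CREBRF, a regulator of the cell's response to starvation, was at 239, 237 and 255 CPM in CE, 29.5, 28.7 and 26.1 CPM in LPS, and 13.7, 14.7 and 13.9 CPM in NC. The groups did not overlap, and its change was 4.11 ± 0.08 in CE and 0.99 in LPS. MXD1, a partner of MAX that opposes MYC, was 3.29 ± 0.07 and 1.98 higher, and BCL6, a repressor, 4.00 ± 0.15 and 3.81. The class of new genes took HBP1 (2.02), PIK3IP1 (1.40) and KLHL24 as higher members and CITED2 (-1.07) as a lower one.

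Hypoxia targets rose in 22 of 36 cases, fell in 3 and did not pass in 11, with a median of 1.30 in CE and 0.56 in LPS; without CE 2, 6 fell. BHLHE40, a transcription factor of hypoxia and the clock, was at 159, 163 and 158 CPM in CE, 29.9, 30.9 and 30.9 CPM in LPS, and 4.98, 4.57 and 5.14 CPM in NC. All 3 groups were apart, and its change was 5.03 ± 0.05 in CE (adjusted p = 1.4e-13) and 2.64 in LPS. P4HA1, a collagen prolyl hydroxylase, was at 548, 446 and 518 CPM in CE, 204, 205 and 187 CPM in LPS, and 108, 105 and 106 CPM in NC, a change of 2.25 ± 0.07. KDM3A, a histone demethylase that hypoxia induces, was new in CE (1.61 ± 0.05, against 0.04 in LPS), as were BNIP3L and KDM4C among the higher members and CITED2 among the lower. ACGTG was in 13 of 28 promoters of this list (46.4%), 10 of 29 of the glycolysis list (34.5%) and 13 of 30 of the lysosome list (43.3%). Shares were similar in lists of other functions, some of which fell: 44.4% of the immediate early genes, 37.5% of the unfolded protein response, 36.7% of G2 and mitosis and 33.3% of the ribosomal proteins. BHLHE40 is shown as the member with the smallest p, with 4 matches beginning 245, 244, 174 and 149 bases before the start, the first pair overlapping in a palindrome, in chr3:4979187-4979436 on the plus strand.
BHLHE40: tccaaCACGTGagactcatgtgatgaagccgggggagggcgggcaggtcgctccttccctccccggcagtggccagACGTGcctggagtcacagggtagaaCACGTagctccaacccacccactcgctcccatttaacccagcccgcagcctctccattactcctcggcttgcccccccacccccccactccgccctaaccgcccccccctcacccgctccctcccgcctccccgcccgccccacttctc

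Glycolysis genes rose in 15 of 31 cases, fell in 7 and did not pass in 9, where 34.6% of all tested genes rose and 29.4% fell. The median was 0.68 in CE and 0.06 in LPS, and the median in CE was 0.23 without CE 2. SLC2A3, the glucose transporter GLUT3, was at 101, 84.9 and 90.8 CPM in CE, 32.7, 32.9 and 31.9 CPM in LPS, and 4.03, 3.70 and 3.54 CPM in NC, a change of 4.61 ± 0.09. ENO2, the neuronal enolase, was at 18.8, 19.1 and 18.7 CPM in CE, 1.72, 1.51 and 1.91 CPM in LPS, and 1.25, 1.01 and 1.37 CPM in NC. As with ALDOC, only the CE libraries were high, and ENO2 was 3.96 ± 0.12 higher in CE and 0.51 in LPS. PYGL, which breaks down glycogen, fell by 2.26 ± 0.05 in CE and 0.84 in LPS.

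Genes of amino acid supply and the integrated stress response were higher in CE than in LPS in 24 cases and lower in 2. Of 35 tested members 25 rose and 4 fell in CE, with a median of 0.72, and 5 rose and 16 fell in LPS, with a median of -0.22; without CE 2 the median in CE was 0.37, and with upper quartile factors 15 rose and 6 fell. ASNS, asparagine synthetase, was at 189, 161 and 182 CPM in CE, 43.7, 41.4 and 36.8 CPM in LPS, and 87.8, 81.8 and 84.4 CPM in NC. The LPS libraries lay below NC and those of CE above it, and ASNS was 1.07 ± 0.07 higher in CE (adjusted p = 1.7e-07) and 1.06 lower in LPS, so it is in the opposite class. PSAT1 and PHGDH, enzymes of serine synthesis, ALDH1L2, a mitochondrial folate enzyme, and EIF4EBP1, a repressor of translation, lay near NC: their log2 differences were 0.25, 0.53, 0.11 and 0.24 in CE and -1.50, -1.34, -1.26 and -1.04 in LPS. DDIT3, the factor CHOP, was at 75.2, 64.5 and 68.2 CPM in CE, 21.5, 25.4 and 21.2 CPM in LPS, and 16.4, 16.9 and 17.9 CPM in NC, a change of 2.02 ± 0.09. SLC7A11, the cystine transporter, rose by 1.51 ± 0.07 and WARS1, which charges the tryptophan transfer RNA, by 1.67 ± 0.06, and NUPR1 was new (2.48).
The amino acid response element was searched as TGATGNAA and was in 2 of 27 promoters of the list (7.41%), in 2 of 24 of the IL-1 and inflammasome list (8.33%) and in 3.19% of all. ASNS is shown for its match, which begins 68 bases before the start, in chr7:97872409-97872658 on the minus strand.
ASNS: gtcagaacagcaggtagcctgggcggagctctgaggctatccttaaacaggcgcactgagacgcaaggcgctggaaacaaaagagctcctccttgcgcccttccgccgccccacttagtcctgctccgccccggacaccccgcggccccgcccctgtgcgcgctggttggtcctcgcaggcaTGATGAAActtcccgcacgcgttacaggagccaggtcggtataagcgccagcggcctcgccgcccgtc

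Targets of NRF2, the factor of the oxidative stress response, rose in 20 of 30 cases and fell in 3, with a median of 1.30 in CE and 0.34 in LPS. NFE2L2, which encodes NRF2, was at 550, 482 and 536 CPM in CE, 259, 254 and 231 CPM in LPS, and 122, 114 and 118 CPM in NC. ME1, malic enzyme, was at 144, 132 and 144 CPM in CE, 60.7, 60.4 and 63.4 CPM in LPS, and 19.5, 22.7 and 22.4 CPM in NC. In both the groups were apart, with changes of 2.15 ± 0.06 and 2.70 ± 0.08 in CE. HMOX1, heme oxygenase, was 5.07 ± 0.23 higher in CE and 5.75 in LPS, with 13.5, 19.4 and 14.2 CPM in CE and 0.291, 0.502 and 0.628 CPM in NC. ABCC2, SRXN1, TRIM16 and TRIM16L were new in CE (1.19, 1.57, 1.96 and 2.62), the last a near copy of part of TRIM16.

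Of 34 iron and heme genes 11 rose, 9 fell and 14 did not pass, where 34.6% of all tested genes rose and 29.4% fell. These counts lay near the shares of all genes and are no result about the list. The median of 0.02 turned negative under several settings, to -0.27 with upper quartile factors. FTH1, the ferritin heavy chain, was at 2998, 3159 and 2788 CPM in CE, 1936, 1892 and 2024 CPM in LPS, and 84.1, 80.01 and 87.3 CPM in NC, a change of 5.15 ± 0.08, although processed copies of the gene make its count uncertain. ALAS1, the first enzyme of heme synthesis, was at 359, 307 and 336 CPM in CE and 62.3, 62.2 and 56.8 CPM in NC (2.46 ± 0.06), with a difference of -0.03 to LPS (adjusted p = 0.721). SLC11A2, an importer of iron, rose by 2.59 ± 0.07, while SLC40A1, the exporter ferroportin, fell by 3.26 in CE and 3.03 in LPS, and SLC11A1, the transporter of the phagosome, was opposite (-1.50 in CE and 1.48 in LPS). The last pair were chosen after their values were seen.

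Lysosome and autophagy genes rose in 35 of 44 cases and fell in 1, with a median of 1.39 in CE and 0.62 in LPS; without CE 2, 2 fell, and with CE 2 and NC 3 left out, 31 rose and 2 fell. OPTN, an autophagy receptor, was at 155, 141 and 149 CPM in CE, 63.4, 63.4 and 65.1 CPM in LPS, and 6.40, 5.34 and 5.99 CPM in NC. PSAP, the precursor of saposins, was at 1707, 1555 and 1589 CPM in CE, 1061, 1071 and 1105 CPM in LPS, and 242, 234 and 228 CPM in NC. No group overlapped another in either gene, and their changes were 4.65 ± 0.07 and 2.79 ± 0.05 in CE. The protease genes CTSB and CTSH rose by 2.78 ± 0.05 and 2.99 ± 0.05. The new members were FNIP1, RRAGC and RRAGD (2.13, 1.37 and 1.41), which act in the nutrient sensing of the lysosome.

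TGF-beta and activin genes rose in 22 of 29 cases and fell in 2, with a median of 1.53 in CE and 0.67 in LPS, and the median in CE was 0.995 without CE 2. SKIL, a repressor of SMAD signalling, was at 299, 302 and 323 CPM in CE, 59.9, 62.6 and 54.6 CPM in LPS, and 11.0, 11.1 and 11.0 CPM in NC, a change of 4.80 ± 0.07 in CE and 2.42 in LPS. TGFBR1, the type I receptor, rose by 2.14 ± 0.05 and TGFBI, a secreted matrix protein, by 1.60 ± 0.04. THBS1, thrombospondin, was at 8.27, 9.87 and 9.01 CPM in CE, 91.2, 87.2 and 94.7 CPM in LPS, and 0.208, 0.183 and 0.114 CPM in NC. CE lay between the other groups, 5.66 ± 0.14 above NC and 3.33 below LPS. The standard error can be too small at such low levels in NC. Over all settings the change of THBS1 against NC ran from 1.34 to 5.84. GDF11, a ligand of the activin receptors, was the only new member (-1.11).

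Cell cycle genes fell in more cases than they rose, with medians close in size to the shifts that scaling alone gave. Of 36 genes of G2 and mitosis 2 rose, 22 fell and 12 did not pass in CE, with a median of -0.31, where in LPS 7 rose and 4 fell, with a median of 0.04, and CE was above LPS in 1 and below it in 22. In limma on TPM 8 fell in CE, and without CE 2, 5 rose, and without any 1 of the NC libraries, 1 rose. KIF20A, a kinesin of cell division, was at 41.8, 36.7 and 40.5 CPM in CE, 108, 109 and 106 CPM in LPS, and 123, 114 and 117 CPM in NC. It fell by 1.57 ± 0.08, and CDC20, CCNB1 and HMMR, the other new genes of the list, fell by 1.12 ± 0.06, 1.15 ± 0.07 and 1.06 ± 0.07. Of 38 genes of DNA replication and G1/S 4 rose, 20 fell and 14 did not pass in CE, with a median of -0.35, and 5 rose and 18 fell in LPS; in limma on TPM 10 or 9 fell in CE, by pseudocount. CCNE1, a cyclin of that step, fell by 1.27 ± 0.08 in CE, where LPS had a difference of -0.12. RRM2, which makes deoxynucleotides, was at 96.4, 82.7 and 91.4 CPM in CE, 242, 242 and 228 CPM in LPS, and 171, 172 and 164 CPM in NC, so that it fell by 0.91 ± 0.06 in CE and was 0.49 higher in LPS.

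Genes of ribosome production fell in 25 of 39 cases and rose in 3, with a median of -0.65 in CE and 0.04 in LPS, and CE was below LPS in 29. NOP56, a protein of the particles that methylate ribosomal RNA, was at 85.0, 77.4 and 78.3 CPM in CE, 248, 253 and 245 CPM in LPS, and 315, 300 and 316 CPM in NC, a fall of 1.95 ± 0.05. Without CE 3, NC 2 or NC 3, 1 member rose. NCL, nucleolin, fell by 1.23 ± 0.07 and NOP16, which was new, by 1.73 ± 0.07. Of 49 ribosomal protein genes 43 fell in CE and 0 rose, with a median of -0.46, and all 49 fell in LPS, with a median of -0.60. RPL3 fell by 1.18 ± 0.07 and RPS2 by 0.79 ± 0.05; the number that fell was 32 with a GC offset and 7 in limma on TPM, and reads of these genes may be shared with processed copies. Nuclear genes of oxidative phosphorylation fell in 26 of 46 cases and rose in 4 (7 without CE 2), with a median of -0.22 in both CE and LPS. That median lay within the range of shifts that scaling alone gave. With a GC offset 19 fell, and in limma on TPM 4 fell. NDUFB10, of complex I, was at 43.9, 42.0 and 40.4 CPM in CE, 55.2, 55.8 and 56.5 CPM in LPS, and 97.0, 92.8 and 89.4 CPM in NC, and fell by 1.15 ± 0.06. The 13 mitochondrially encoded genes were mixed, with 3 higher, 6 lower and a median of -0.18 in CE that was 0.004 in limma on TPM: MT-ND5 and MT-ND6 rose by 0.63 ± 0.07 and 0.78 ± 0.11, and MT-CO3 fell by 0.68 ± 0.09, a call lost in limma on TPM.

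Heat shock proteins fell in 14 of 27 cases and rose in 3 in CE, with a median of -0.16, where 15 rose and 2 fell in LPS, with a median of 0.25, and CE was below LPS in 19 and above it in 1. The median in CE was of the size of the shifts that scaling alone gave. Without CE 1, 5 rose in CE, and in limma on TPM 6 fell. HSPA8, the chaperone HSC70 that cells make without stress, was at 1131, 928 and 1053 CPM in CE, 4108, 4136 and 3929 CPM in LPS, and 3533, 3262 and 3464 CPM in NC. The CE libraries lay far below all others, and HSPA8 fell by 1.72 ± 0.08 (adjusted p = 5.6e-09). HSPB1, a small heat shock protein, fell by 1.68 ± 0.09, and FKBP4, a partner of HSP90 from the family of immunophilins, was new (-1.05 ± 0.07). Genes of the unfolded protein response rose in 14 of 25 cases and fell in 4, with a median of 0.31, close to the shift that scaling alone gave; with upper quartile factors 8 fell. ERO1A, an oxidase of the endoplasmic reticulum, rose by 1.63 ± 0.06 and HERPUD1 by 1.40 ± 0.07. Cholesterol and LXR genes rose in 11 of 26 cases and fell in 7, where 34.6% of all tested genes rose and 29.4% fell. The median of the list was 0.56, and 0.13 without CE 2. ABCA1, which exports cholesterol, was new: 209, 225 and 245 CPM in CE, 87.3, 84.4 and 84.0 CPM in LPS, and 77.1, 69.1 and 79.8 CPM in NC, a change of 1.59 ± 0.07.

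Genes of p53 and cell death rose in 21 of 34 cases and fell in 4, with a median of 0.86 in CE and 0.43 in LPS. BCL2A1, a protein that holds back apoptosis, was at 116, 93.8 and 107 CPM in CE, 38.3, 38.0 and 34.5 CPM in LPS, and 0.415, 0.228 and 0.400 CPM in NC. All 3 groups were apart, and BCL2A1 was 8.23 ± 0.16 higher in CE and 6.71 in LPS. TNFRSF10B, a death receptor of TRAIL, was 2.58 ± 0.07 higher in CE and 1.60 in LPS, and BID, which links death receptors to mitochondria, 1.38 ± 0.05 and 1.21. Among metallothionein and zinc genes 5 of 12 rose and 3 fell (3 rose without NC 3), where 34.6% of all tested genes rose and 29.4% fell. MT2A, a zinc-binding protein, was 2.35 ± 0.10 higher in CE and 2.70 in LPS. Histone genes of replication fell in 3 of 9 cases, beside 29.4% of all tested genes, and rose in 0. Their median of -2.12 was -0.47 without NC 3, the library with the high histone level. The number that fell was 7 without NC 1 and 10 without NC 2, 16 when low counts were not filtered, and 2 without NC 3. H4C8 was at 0.0984, 0.144 and 0.0964 CPM in CE, against 0.208, 0.183 and 5.14 CPM in NC, so that NC 3 alone was high. Its log2 difference of -3.92 ± 1.59 (adjusted p = 0.0493) was -0.80 without NC 3 (adjusted p = 0.667), and the call was lost in 10 of 19 alternatives, among them each CE library left out, limma, and the replicate number as a block (-3.56, adjusted p = 0.111).

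Some genes lay closer to NC in CE than in LPS and yet remained far from it, and others lay past NC or near it. LUM and DCN, proteoglycans of connective tissue, had 132 and 128 counts over CE and 2 and 3 over NC, ratios of 67.8 (counting interval 18.4 to 565) and 43.8 (14.7 to 215), and lay 4.04 and 4.16 lower in CE than in LPS. HSD11B1, which makes active cortisol, went past NC: it was at 3.35, 3.47 and 3.33 CPM in CE, 116, 121 and 117 CPM in LPS, and 33.6, 34.3 and 34.5 CPM in NC. LPS lay above NC and CE below it in every library, and HSD11B1 was 3.33 ± 0.10 lower in CE than in NC (adjusted p = 1.0e-10) and 1.79 higher in LPS than in NC. NAIP, a sensor of bacterial needle proteins, was likewise opposite (-1.09 ± 0.09 in CE and 1.34 in LPS), and its locus holds near-identical copies. ST6GALNAC3, a sialyltransferase, was opposite the other way, 1.14 ± 0.16 higher in CE and 1.20 lower in LPS. Among the genes near NC, CACNB4 and NCAM1 had been lower in LPS by 2.23 and 1.56 and had log2 differences of -0.11 ± 0.09 (adjusted p = 0.267) and 0.25 ± 0.09 (adjusted p = 0.0241) in CE, of which the call of NCAM1 was lost without NC 3 (0.26, adjusted p = 0.0647) and without 4 of the other libraries of CE and NC, with signs that turned in limma (0.40 on log2(TPM + 1)) for CACNB4 and with upper quartile factors (-0.03) for NCAM1.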

How the data were processed

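Messenger RNA of THP-1 cells was selected with oligo-dT beads before fragmentation, cDNA synthesis and PCR, per the labels' protocols, in 4 groups of 3 libraries. The genome build was hg38, per the submitters' processing notes. What aligned and counted the reads, by which strand rule and annotation, is not given in the sources used here. Of 78932 genes in the 3 tables that the authors deposited, 42745 are paired with a symbol. One deposited table has estimated counts, 29.3% of them (those above 0) farther than 0.005 from a whole number. The other deposited tables give TPM and FPKM. Columns were matched to samples by group and replicate number, CE as the remaining group, with 0 columns left over. Nothing says that the replicates came from separate cultures, so each p reflects the spread between these samples only, which may be technical.

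Estimated counts were rounded to whole numbers and filtered with filterByExpr in edgeR 4.0.16 (R 4.3.3), which left 14065 genes. All 12 libraries entered a single quasi-likelihood fit with TMM factors and group as its term, so the groups share an estimate of the spread (8 residual and 2.93 prior degrees of freedom, biological coefficient of variation 20.13%). Two-sided F-tests were adjusted by Benjamini and Hochberg over all tested genes. CPM are counts scaled to TMM-adjusted library sizes. Standard errors were taken as a log2 change over the root of its F, and they can be too small at few counts. For a group with 1 to 3 counts a ratio has an exact 95% interval beside it, which covers counting error only, since PCR reads without molecular identifiers are not independent molecules. Without strand, reads of a gene and of an antisense partner cannot be told apart.

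The genes described, the 35 lists (1051 genes, 922 tested) and the motifs were chosen with earlier results of these data known. Named genes are the 3 markers, 9 core genes of inflammation, and, where log2 CPM averaged 3 or more and the groups did not overlap, the genes with the largest changes in each class, and, by smallest p, up to 4 of every list, 172 in all. Other members named by class or as exceptions were chosen after their values were seen. Promoters were matched for 134 of the 172. The fit was tested on simulated data, where it recovered 33 of 50 changes of 1 log2 unit (66%) and 43 of 50 changes of 2 (86%). Of 77 calls there, 1 was false. In the data 34.6% of the genes were called higher and 29.4% lower, a far larger share than in the simulation. The adjustment of p was therefore stricter in the simulation, and its shares of recovery do not carry over. Changes near 2-fold can be missed, but how often was not tested.

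The batch number used here for each library is the replicate number in its title, so each number covers 1 library of each group. The titles name no processing batch. Whether libraries of the same number were handled together is not known. Over 7460 genes, deviations from the group mean correlated over 0.1 in 6 of 18 pairs with the same number (range -0.857 to 0.728), and among the 3 pairs of CE and NC 2 did. Alternatives were other scalings and filters, DESeq2 1.42.0, limma 3.58.1 on log2(TPM + 1), log2(TPM + 0.1) and log2(FPKM + 1), the replicate block, each replicate left out, other thresholds, and, chosen after seeing the data, pairs of libraries left out, protein-coding genes only, a wider class of new genes, and an offset for GC content. Figures were drawn with matplotlib 3.10.9.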

Additional observations from a re-analysis of the deposited data

How the results depend on the processing

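The 172 named genes gave 3603 values of CE against NC under the alternatives, of which 3510 kept direction and call, 53 lost the call, 20 gained it and 20 changed sign; 149 genes kept both throughout. The signs that changed belonged to genes near 0 or with few counts. They were TGM5 (-0.24 with upper quartile factors, -0.12 with library size alone, -0.12 in limma on FPKM, -0.0619 without NC 3 and LPS 1, -0.0456 with protein-coding genes only, and -0.0340 to 0.113 with replicates left out), IL18 (0.0860 and 0.0894 in limma on TPM), PYCARD (0.0154 with a GC offset), GSDMD (-1.53 without CE 2 and NC 3, and -1.35 to 0.816 with replicates left out), RAPGEF2 (-0.0274 with upper quartile factors), VCAN (-0.0259 with upper quartile factors, -0.00569 in limma on FPKM), CACNB4 (0.400 and 0.455 in limma on TPM, 0.101 on FPKM) and NCAM1 (-0.0343 with upper quartile factors).

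With upper quartile factors 3571 genes were higher and 5646 lower in CE. On log2(TPM + 1) and log2(TPM + 0.1), 2070 and 2000 genes were lower in CE. At least 2-fold, 681 were lower on log2(TPM + 1), and 1240 were higher and 1104 lower on FPKM. With replicates left out, 4320 to 4888 were higher and 3791 to 4594 lower, at least 2-fold 2255 to 2574 and 1815 to 2320.

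Genes that remained changed and higher numbered 628 on FPKM and 2665 with adjusted p alone (1115 to 1226 with replicates left out). Those lower numbered 173 and 353 on TPM, 232 on FPKM, 380 with protein-coding genes only, 1168 with a 1.5-fold threshold and 2294 with adjusted p alone (549 to 699). New higher genes numbered 150 with upper quartile factors, 155 with library size alone, 364 with no filter, 524 and 520 on TPM, 142 on FPKM, 741 at 1.5-fold, 1438 with adjusted p alone, 143 where near NC meant an interval within 1.5-fold, 632 where it meant not called, and 691 where LPS could be called (201 to 274). New lower genes numbered 448 without CE 2 and NC 3, and 666, 1199, 117, 753 and 540 under the last 5 settings (260 to 471). Near NC from above there were 93 with no filter, 92 on log2(TPM + 1), 132 on FPKM, 111 at 1.5-fold, 163 with adjusted p alone, and 16 and 103 under the other meanings of near (49 to 96). From below there were 25 and 31 on TPM, 29 on FPKM, 61 with protein-coding genes, 286 at 1.5-fold, 434 with adjusted p alone and 34 within 1.5-fold (74 to 93). Opposite and higher were 4 with upper quartile factors, 3 with library size alone, 1 and 4 on TPM, 1 on FPKM, 5 without NC 3 and LPS 1, 5 with protein-coding genes, 32 at 1.5-fold and 341 with adjusted p alone (5 to 10). Opposite and lower were 13 in DESeq2, 4 and 9 on TPM, 3 on FPKM, 13 without NC 3 and LPS 1, 12 with protein-coding genes, 36 at 1.5-fold and 142 with adjusted p alone (12 to 28). The cause was not tested.

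With the replicate block 4669 genes were higher and 3975 lower, H4C8 lost its call (-3.56, adjusted p = 0.111), as in 9 other alternatives, and no other named gene changed its call. With 3 libraries a group, genes with few counts, such as GSDMD, allow no firm statement.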
